A study of Mus musculus with 9 samples.

Results

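Ets1, Ets2, Fli1, Elf1, Elf2, Elf4, Etv6, Elk3, Erf and Gabpa are 10 genes of ETS transcription factors, and they were read on 22 probe sets of an array that measured 17097 genes in 9 samples. The genes were chosen by family, after Ets1 had been seen to differ between microglia in glioma-conditioned medium (GCM) and untreated microglia on these arrays. For each gene, the probe set with the highest mean signal over the 9 arrays was selected on that value to stand for the gene. The difference of Ets1 between the groups is therefore described here with no test.

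The samples were primary microglia from the cortices of C57BL/6J mice of age P0-P2, kept in culture medium with serum. 3 samples were exposed for 6 h to GCM LN18, 3 for 6 h to GCM U87-MG, and 3 were left untreated as controls. LN18 and U87-MG are established human glioblastoma lines, so the media carried human proteins while the arrays read murine RNA. The study states that fresh GCM was used to treat the cells, but not whether it replaced all of their medium. The labels do not say whether the medium of the controls was changed. The cells had been shaken off a glial monolayer, and they were cultured neonatal microglia, not glioma-associated cells taken from a tumor.

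ETS factors share a DNA-binding domain, the ETS domain, that recognizes a short core, GGAA. Most activate transcription, several of them after phosphorylation by the kinase ERK, whereas Etv6, Erf and, in its unphosphorylated form, Elk3 repress it. In myeloid cells the ETS factor Spi1 (PU.1) is required for the lineage, and the other family members bind overlapping sites beside it.

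The values were log2 signals that the authors had normalized before deposit, and they ran from 1.56 to 12.88 with array medians between 3.39 and 3.41. Arrays have no read depth, and their number, 3 per group, limits the precision. For 100% of the probe sets the 3 arrays of each replicate number had the same mean, within 1e-06, as after subtraction of each replicate's mean. SDs within a group therefore leave out differences between replicate numbers. Fold changes were estimated with limma in a fit that holds the replicate number as a block, and a gene was called where its p, adjusted over all 17097 genes after Benjamini and Hochberg, lay under 0.05. Of 9 measured microglial markers 7 lay above the median gene, with C1qa at a mean log2 signal of 11.31, while P2ry12 and Tmem119, which cultured microglia express weakly, averaged 3.65 and 4.28. Of the measured markers of astrocytes (6), the oligodendrocyte lineage (4), neurons (5) and fibroblasts (5), 0 lay above the median gene, while 1 of 6 endothelial markers (Kdr, at 5.25) and 1 of 5 lymphocyte markers (Cd3e, at 5.18) did.

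Ets1, which in lymphocytes and endothelium controls differentiation and matrix genes, was higher in both media, and more so in GCM LN18. Its log2 signal was 5.01, 4.85 and 4.91 on the GCM LN18 arrays, 4.45, 4.45 and 4.59 on the GCM U87-MG arrays, and 3.83, 3.99 and 3.79 on the control arrays. The 3 groups did not overlap, and they stood in the order GCM LN18, GCM U87-MG, control. The log2 fold change was 1.05 (95% confidence interval 0.87 to 1.24) in GCM LN18, a 2.08-fold higher signal, and 0.63 (0.44 to 0.82) in GCM U87-MG, a 1.55-fold higher one. By replicate number the difference from control was 1.18, 0.86 and 1.12 with GCM LN18 and 0.63, 0.46 and 0.80 with GCM U87-MG. GCM LN18 exceeded GCM U87-MG by 0.56, 0.40 and 0.31 in the same replicates. Among all genes, Ets1 had the 20th largest positive fold change in GCM LN18 and the 42nd in GCM U87-MG.

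The 4 probe sets of Ets1 differed in what they showed. That described above, 1426725_PM_s_at, had a mean of 4.43 over the 9 arrays, close to the median of 4.34 over all genes, so Ets1 was a dim gene. The probe set 1452163_PM_at, annotated to the same accession, had log2 signals of 4.00, 4.14 and 4.15 with GCM LN18, 3.94, 3.84 and 3.81 with GCM U87-MG, and 3.59, 3.54 and 3.56 in control. It showed the same order, with log2 fold changes of 0.53 and 0.30. The other two, 1422027_PM_a_at and 1422028_PM_a_at, share another accession and had means of 3.65 and 2.49. Their log2 fold changes were -0.01 (95% confidence interval -0.17 to 0.15) and 0.07 (-0.10 to 0.24) in GCM LN18, and their groups overlapped. Averaged over its 4 probe sets, Ets1 had a log2 fold change of 0.41 with GCM LN18 and 0.23 with GCM U87-MG.

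Ets2, the closest relative of Ets1 and a factor that ERK signalling activates in macrophages, differed in the opposite direction. Its log2 signal was 8.41, 8.38 and 8.53 with GCM LN18, 8.67, 8.63 and 8.56 with GCM U87-MG, and 9.06, 9.14 and 9.05 in control. Every array of either medium lay below every control array, and the GCM LN18 arrays lay below those of GCM U87-MG. In GCM LN18, Ets2 fell by 0.64 in log2 signal (standard error, SE, 0.07, limma adjusted p = 0.0129), with differences of -0.65, -0.76 and -0.52 by replicate number. In GCM U87-MG its log2 fold change was -0.47 (SE 0.07, limma adjusted p = 0.0838, 0.00613 without the replicate block), with differences of -0.39, -0.51 and -0.50. For the mean of both media it was -0.55 (limma adjusted p = 0.0116). Ets2 was read by a single probe set, 1416268_PM_at. Without GCM LN18 replicate 1 or GCM LN18 replicate 2 the fold change in GCM LN18 was -0.62 or -0.60, with an adjusted p of 0.0779 or 0.121, and without GCM LN18 replicate 2 or GCM U87-MG replicate 3 that of both media was -0.53 in each case (adjusted p = 0.0511 and 0.0537).

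**Figure D1:**
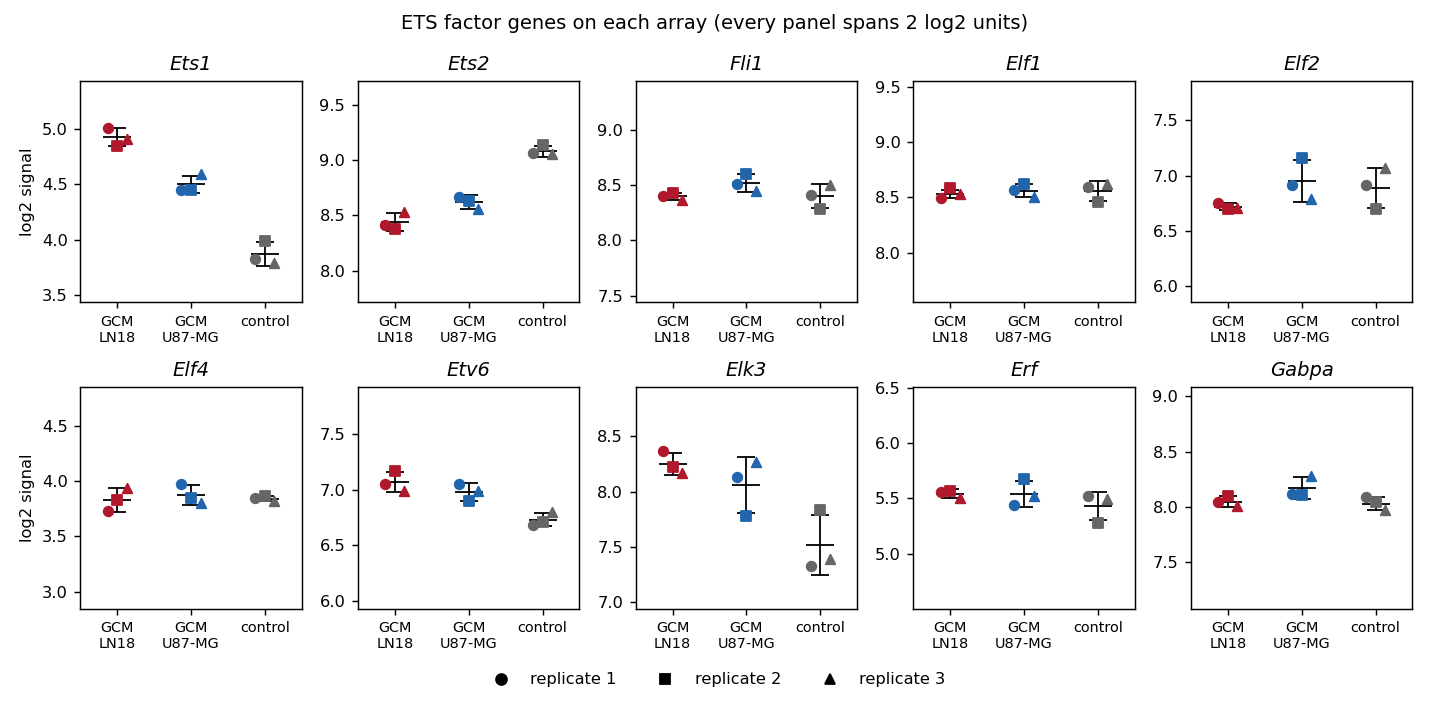
Log2 signal (vertical axis, 2 log2 units in every panel) of the 10 genes on each array of GCM LN18 (red), GCM U87-MG (blue) and control (grey), with a marker for each replicate number and a bar for the mean ± SD of the 3 arrays of a group. Ets1 and Etv6 are higher on every treated array than on any control array and Ets2 is lower, and control replicate 2 lies closest to the treated arrays for Elk3.

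Elk3 (Net) binds serum response elements together with Srf and turns from repressor to activator when ERK phosphorylates it. Its log2 signal was 8.37, 8.22 and 8.17 with GCM LN18, 8.13, 7.78 and 8.27 with GCM U87-MG, and 7.33, 7.83 and 7.39 in control. The GCM LN18 arrays lay above all control arrays, whereas GCM U87-MG replicate 2 lay below control replicate 2. The log2 fold change was 0.74 (SE 0.16, limma adjusted p = 0.0926) with GCM LN18 and 0.54 (SE 0.16, limma adjusted p = 0.383) with GCM U87-MG, so neither passed the test. Without the replicate block the adjusted p was 0.0259 and 0.116. By replicate number the difference was 1.04, 0.39 and 0.78 with GCM LN18 and 0.80, -0.05 and 0.88 with GCM U87-MG. Without control replicate 2 Elk3 passed in GCM LN18, at 0.97 (limma adjusted p = 0.0333), and without GCM U87-MG replicate 2 it passed at 0.74 (limma adjusted p = 0.0456). Over all alternatives that leave out 1 array its adjusted p in GCM LN18 ran from 0.0333 to 0.372. All 3 probe sets of Elk3 had positive fold changes, with 0.62 for 1435143_PM_at and 0.64 (95% confidence interval 0.46 to 0.82) for 1417662_PM_at with GCM LN18, and 0.41 and 0.39 with GCM U87-MG.

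Etv6 (Tel) is a repressor that hematopoiesis in the bone marrow needs. Its log2 signal was 7.05, 7.17 and 6.99 with GCM LN18, 7.05, 6.90 and 6.99 with GCM U87-MG, and 6.68, 6.71 and 6.80 in control. Both media lay above control on all arrays, and they overlapped each other. The log2 fold change of 0.34 (SE 0.07, limma adjusted p = 0.0862, 0.0139 without the replicate block) with GCM LN18 and of 0.25 (limma adjusted p = 0.368, 0.0780 without the block) with GCM U87-MG did not pass. Etv6, too, had a single probe set.

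Fli1, an activator of hematopoietic and endothelial genes, lies beside Ets1 on chromosome 9 with 0 protein-coding genes between them in the RefSeq annotation. Its log2 signal was 8.40, 8.43 and 8.37 with GCM LN18, 8.51, 8.60 and 8.45 with GCM U87-MG, and 8.41, 8.28 and 8.50 in control. The groups of either medium overlapped control, although Ets1 next to it differed. The log2 fold change was 0.01 (95% confidence interval -0.17 to 0.18) with GCM LN18 and 0.12 (-0.05 to 0.30) with GCM U87-MG. Its second probe set, 1422024_PM_at, varied widely, from 6.17 to 7.25 on the GCM U87-MG arrays and from 5.88 to 6.90 on the control arrays, against 6.55 to 6.74 on those of GCM LN18.

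Elf1, Elf2 and Elf4 did not pass the test in either medium, and their 95% confidence intervals include 0. Elf1 acts on T cell and myeloid promoters. Its log2 signal was 8.49, 8.58 and 8.53 with GCM LN18, 8.57, 8.62 and 8.50 with GCM U87-MG, and 8.59, 8.46 and 8.62 in control, and the groups overlapped. Its fold change of -0.02 had a 95% confidence interval of -0.18 to 0.13 in GCM LN18, and that of 0.01 in GCM U87-MG one of -0.15 to 0.16. Elf2 (NERF), its near relative with activating and repressing isoforms, had log2 signals of 6.75, 6.70 and 6.71 with GCM LN18, 6.91, 7.16 and 6.79 with GCM U87-MG, and 6.91, 6.70 and 7.07 in control. Its GCM LN18 arrays were close together and the other groups spread more, and the fold change was -0.17 (95% confidence interval -0.44 to 0.10) with GCM LN18 and 0.06 (-0.21 to 0.33) with GCM U87-MG. Elf4 (Mef), which acts in natural killer and T cells, was dim, at 3.73, 3.83 and 3.94 with GCM LN18, 3.97, 3.85 and 3.80 with GCM U87-MG, and 3.85, 3.86 and 3.82 in control. Its fold changes of -0.01 and 0.03 had intervals of -0.18 to 0.16 and -0.14 to 0.20.

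Erf, a repressor that ERK moves out of the nucleus, had log2 signals of 5.56, 5.57 and 5.50 with GCM LN18, 5.44, 5.67 and 5.52 with GCM U87-MG, and 5.52, 5.28 and 5.49 in control. The fold change was 0.11 in both media (95% confidence interval -0.09 to 0.32 in GCM LN18 and -0.09 to 0.31 in GCM U87-MG). Gabpa, the DNA-binding subunit of GABP, which drives genes of mitochondrial and ribosomal function, had log2 signals of 8.05, 8.10 and 8.01 with GCM LN18, 8.12, 8.11 and 8.28 with GCM U87-MG, and 8.09, 8.05 and 7.97 in control. The GCM U87-MG arrays lay just above the control arrays, and the fold change there was 0.14 (95% confidence interval -0.03 to 0.30) against 0.02 (-0.14 to 0.18) in GCM LN18. The second probe set of Gabpa gave -0.12 with GCM LN18 and -0.04 with GCM U87-MG, so the small difference in GCM U87-MG was not seen on both.

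**Figure D2:**
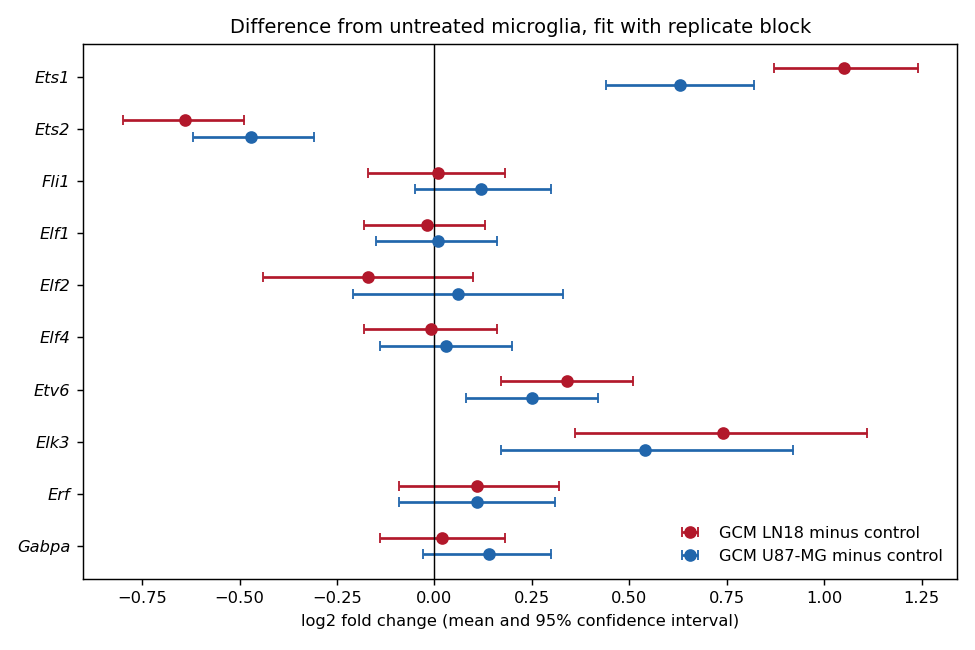
Log2 fold change (horizontal axis, mean and 95% confidence interval of the fit with the replicate block) of the 10 genes in GCM LN18 (red) and GCM U87-MG (blue) against control. The intervals of Ets2, Etv6 and Elk3 do not reach 0 in either medium, those of Fli1, Elf1, Elf2, Elf4, Erf and Gabpa include it, and Ets1, picked for its difference, is shown as a description.

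Leaving Ets1 aside, 1 of the other 9 genes, Ets2, was called lower in GCM LN18 and 0 higher, where 0.538% of all genes were called higher and 0.339% lower. In GCM U87-MG, 0 of the 9 were called by limma, against 0.0468% of all genes called higher and 0% lower. Ets2, Etv6 and Elk3 had an unadjusted p under 0.05 there, as did 9.12% of all genes. For the mean of both media Ets2 was called lower, against 0.509% of all genes called higher and 0.304% lower. The fit without the replicate block counts 6 residual degrees of freedom where such values hold 4. It therefore understates the spread and calls more genes by construction. Without the block Etv6 and Elk3 were called higher and Ets2 lower in GCM LN18, and these 3 were called in the mean of both media too. In that fit 2.59% of all genes were called higher and 2.64% lower in GCM LN18, and 2.34% and 2.47% for both media. In GCM U87-MG it called Ets2 lower, against 0.807% of all genes called higher and 0.708% lower. The comparisons with control share the 3 untreated arrays, so they are not independent of each other.

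By overlap of arrays, given as a description that includes Ets1, Ets1, Etv6 and Elk3 lay wholly above control in GCM LN18 and Ets2 wholly below, as did 11.1% and 12.8% of all genes. In GCM U87-MG, Ets1, Etv6 and Gabpa lay above and Ets2 below, as did 8.79% and 10.3%. The median log2 fold change of the 10 genes was 0.01 with GCM LN18 and 0.12 with GCM U87-MG, beside -0.00 over all genes tested in each medium.

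Tested directly, 0 of the 9 genes other than Ets1 differed between GCM LN18 and GCM U87-MG at an adjusted p under 0.05 in the limma fit (Ets2 had an unadjusted p under 0.05), and 0% of all genes were called (865 of 17097 had an unadjusted p under 0.05, and 1 was called without the block). The log2 difference of Ets2 was -0.18 (95% confidence interval -0.33 to -0.02, limma adjusted p = 0.926), that of Etv6 0.09 (-0.08 to 0.26) and that of Elk3 0.19 (-0.19 to 0.57). For Ets1, whose difference is only described, it was 0.42 (0.24 to 0.61). Ets1 lay wholly higher in GCM LN18 than in GCM U87-MG, and Ets2, Fli1, Elf2 and Gabpa wholly lower, as did 8.92% and 8.48% of all genes. The interval of Elk3 includes differences between the media of up to 0.57.

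**Figure D3:**
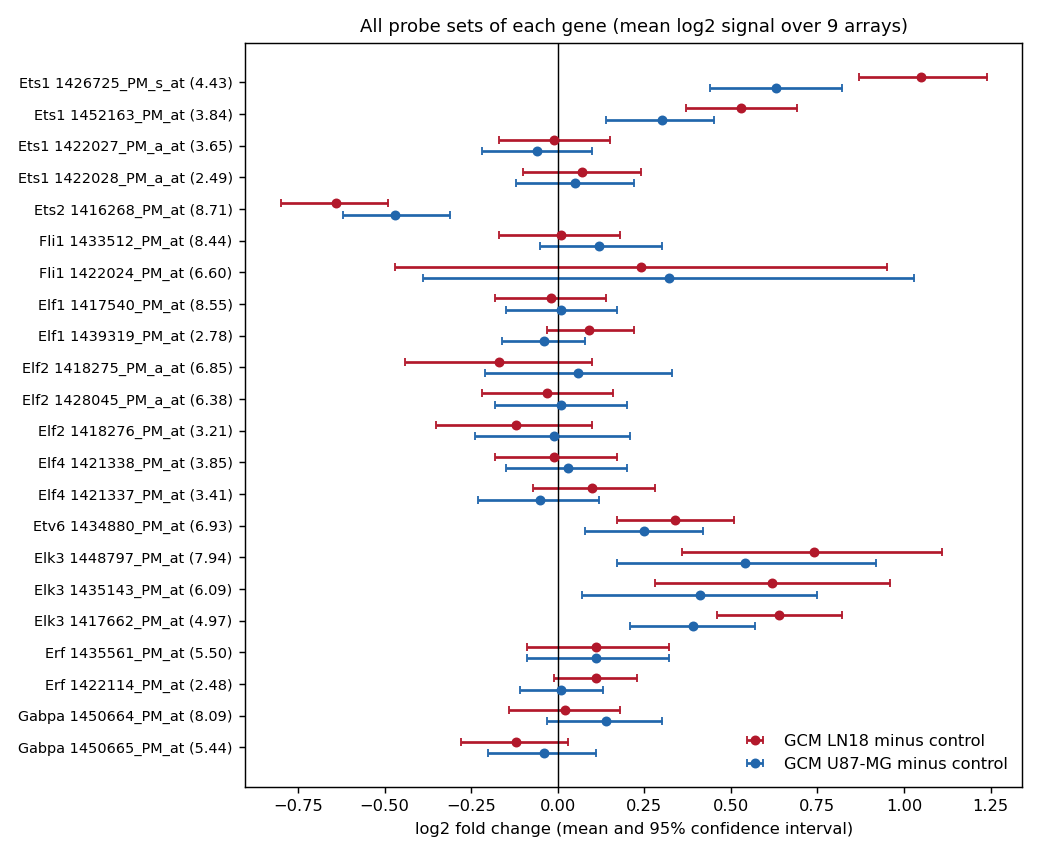
Log2 fold change (horizontal axis, mean and 95% confidence interval) of each of the 22 probe sets in GCM LN18 (red) and GCM U87-MG (blue) against control, with the mean log2 signal over 9 arrays in brackets. The 3 probe sets of Elk3 lie on one side of 0, while 2 of the 4 probe sets of Ets1 have intervals that include 0.

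Across the 9 arrays, the log2 signal of Ets1 had a Pearson correlation of -0.96 with that of Ets2, 0.91 with Elk3 and 0.87 with Etv6, and of -0.01 with its neighbour Fli1. These correlations are descriptions over 9 arrays of 3 groups, in which any gene that differs between the groups in the same order correlates with Ets1. Among 7616 other genes with a mean log2 signal of at least 5, the 5 most like Ets1 were Phldb1 (0.987), Vgll4 (0.984), Cav1 (0.983), Adssl1 (0.983) and Cyb5r4 (0.981). Vgll4 is a cofactor of TEAD factors that limits Hippo target genes, and Cav1 is the scaffold protein of caveolae. Vgll4 had log2 signals of 6.41, 6.40 and 6.48 with GCM LN18, 6.25, 6.20 and 6.24 with GCM U87-MG, and 5.98, 6.04 and 5.91 in control. Its 3 groups stood apart in the same order as those of Ets1, with a log2 fold change of 0.46 in GCM LN18. Cav1 had a fold change of 1.36 there and Adssl1, an enzyme of AMP synthesis, one of 0.93, while those of Phldb1 and Cyb5r4 were smaller, 0.26 and 0.14. The 3 least like were Rab35, a small GTPase of endosomes (-0.993), Wdr81 (-0.985) and Oxct1, an enzyme of ketone body use (-0.984), with log2 fold changes of -0.19, -0.29 and -0.29 in GCM LN18. Since these genes were picked for following Ets1, their differences are given with no test.

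The RefSeq promoter table of build GRCm38.p6 matched 8 of the 10 genes, with 11 promoters of 300 bases, and Ets1 and Fli1 are not shown. The ETS core was searched as GGAA on both strands, where it reads TTCC on the other strand. The promoters of Ets2, Elk3 and Etv6 are shown because these genes, with Ets1, had GCM LN18 arrays that did not overlap control, and that of Gabpa because it alone of the 11 held the longer motif CCGGAA, which contains the core. Capitals mark GGAA and TTCC.
Ets2 promoter, chr16:95702157-95702456, plus strand: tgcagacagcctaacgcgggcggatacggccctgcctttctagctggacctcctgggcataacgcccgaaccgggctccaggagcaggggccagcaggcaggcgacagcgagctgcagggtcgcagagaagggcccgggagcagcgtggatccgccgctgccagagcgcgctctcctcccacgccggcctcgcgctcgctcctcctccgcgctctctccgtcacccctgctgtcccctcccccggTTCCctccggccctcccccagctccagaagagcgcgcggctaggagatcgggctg
Elk3 promoter, chr10:93311110-93311409, minus strand: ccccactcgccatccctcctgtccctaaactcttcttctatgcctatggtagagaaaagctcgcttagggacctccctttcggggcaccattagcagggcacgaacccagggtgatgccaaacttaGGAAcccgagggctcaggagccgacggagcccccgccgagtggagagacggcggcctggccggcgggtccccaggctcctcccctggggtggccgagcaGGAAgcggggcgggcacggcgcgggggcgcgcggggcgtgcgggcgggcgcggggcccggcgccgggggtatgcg
Etv6 promoter, chr6:134035450-134035749, plus strand: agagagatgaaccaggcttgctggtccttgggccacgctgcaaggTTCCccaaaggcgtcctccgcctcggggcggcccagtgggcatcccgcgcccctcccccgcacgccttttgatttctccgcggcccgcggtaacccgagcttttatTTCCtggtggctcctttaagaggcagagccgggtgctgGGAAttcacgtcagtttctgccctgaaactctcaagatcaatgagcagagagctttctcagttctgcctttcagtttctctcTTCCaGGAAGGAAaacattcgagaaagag
Gabpa promoter, chr16:84834874-84835173, plus strand: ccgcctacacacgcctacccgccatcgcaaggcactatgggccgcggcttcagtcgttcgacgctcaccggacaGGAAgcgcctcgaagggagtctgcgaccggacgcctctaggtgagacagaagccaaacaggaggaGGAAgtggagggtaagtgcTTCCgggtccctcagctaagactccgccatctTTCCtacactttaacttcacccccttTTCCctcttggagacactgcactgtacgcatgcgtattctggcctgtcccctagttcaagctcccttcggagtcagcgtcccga

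The core occurred in all 11 promoters, as it did in 96% of the 32851 promoters in the table, so its presence does not set these genes apart. It was found once for Ets2, 2 times for Elk3, 6 times for Etv6 and 5 times for Gabpa, beside a median of 3 over all promoters. The 2 promoters of Elf4 held 8 and 2. CCGGAA, on either strand, was found in 14.9% of all promoters and in 1 of the 11. The full consensus CCGGAAGT was found in 3.89% of all promoters and in 0 of the 11, which says only that these letters are not in these windows.

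Of 16 other ETS genes listed, 14 were measured, and 0 were called in either medium by limma (0 and 1 at an unadjusted p under 0.05, 0 and 0 without the replicate block). Over all genes, an unadjusted p under 0.05 was found for 12.2% with GCM LN18 and 9.12% with GCM U87-MG. The log2 fold changes of the 14 genes ran from -0.25 to 0.11 in GCM LN18 and from -0.17 to 0.10 in GCM U87-MG. Spi1, the factor on which microglia depend, averaged 7.49 ± 0.03 in GCM LN18, 7.42 ± 0.09 in GCM U87-MG and 7.52 ± 0.12 in control (SD, n = 3 each), with fold changes of -0.04 (95% confidence interval -0.22 to 0.15) and -0.11 (-0.29 to 0.08). Etv1 marked the low end in both media, at -0.25 (limma adjusted p = 0.420) and -0.17. Fev and Elk1 were not analysed here.

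Of 17 measured cofactors of ETS proteins (23 listed), 1 was called higher and 0 lower with GCM LN18 by limma, against 0.538% and 0.339% of all genes. With GCM U87-MG 0 were called. At an unadjusted p under 0.05 there were 3 of 17 with GCM LN18 and 4 of 17 with GCM U87-MG, against 12.2% and 9.12% of all genes. Without the block 3 and 1 were called higher, against 2.59% and 0.807%. The 1 gene called with the block was Irf8, the partner with which Spi1 binds composite sites in microglia. Irf8 averaged 8.92 ± 0.04 in GCM LN18, 8.89 ± 0.02 in GCM U87-MG and 8.60 ± 0.05 in control (SD, n = 3 each). It rose by 0.33 in GCM LN18 (limma adjusted p = 0.0480), and its log2 fold change was 0.29 in GCM U87-MG (limma adjusted p = 0.174, 0.0167 without the block). The call of Irf8 in GCM LN18 was lost whichever of the 9 arrays was left out, with an adjusted p between 0.0610 and 0.226. Runx3, a Runt factor, had fold changes of 0.65 and 0.51 and Cebpa of 0.58 and 0.45, with an adjusted p in GCM LN18 of 0.102 and 0.0565 (0.0282 and 0.0103 without the block). The beta subunits of GABP, Gabpb1 and Gabpb2, had fold changes of 0.09 and 0.07 in GCM LN18, and Srf, the partner of Elk3, of 0.09. The median over the cofactors was 0.05 with GCM LN18 and 0.06 with GCM U87-MG.

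The cascade that leads to ERK was represented by 13 measured genes of 19 listed, of which 0 were called in either medium by limma. At an unadjusted p under 0.05 there were 1 with GCM LN18 and 2 with GCM U87-MG, against 12.2% and 9.12% of all genes. Without the block 1 was called lower with GCM LN18, against 2.64% of all genes, and 0 with GCM U87-MG. Fold changes of the 13 genes ran from -0.22 to 0.17 in GCM LN18 and from -0.23 to 0.11 in GCM U87-MG. The lowest in GCM LN18 was Gab2, a docking protein (limma adjusted p = 0.126, 0.0115 without the block). RNA levels of these genes do not measure phosphorylation of ERK or of ETS proteins.

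Of 24 measured genes described as ETS targets in various cells (25 listed), 0 were called in either medium by limma (7 in each at an unadjusted p under 0.05, against 12.2% and 9.12% of all genes). Without the block 1 was called higher and 1 lower with GCM LN18, against 2.59% and 2.64% of all genes, and 0 with GCM U87-MG. The 1 higher was Fos, which serum response elements bound by Srf and Elk proteins control, with log2 fold changes of 0.53 (limma adjusted p = 0.0825, 0.0185 without the block) and 0.36. The 1 lower was Bcl2l1, a survival gene, at -0.24 (limma adjusted p = 0.168, 0.0305 without the block) and -0.12. Egr1, like Fos a gene that serum response elements control, had fold changes of 0.22 and 0.29. Itgam, the integrin CD11b and also among the microglial markers, had fold changes of 0.43 and 0.41, and Mmp9 of -0.26 (95% confidence interval -1.09 to 0.56) and -0.90 (-1.73 to -0.08). The value of Mmp9 rested on single control arrays, being -0.79 and -1.43 without control replicate 3 and 0.15 and -0.49 without control replicate 2. The median over the list was 0.05 in both media. Of 9 measured genes of mitochondrial transcription and respiration described as GABP targets (10 listed), 0 were called in either medium by limma. Polrmt, the mitochondrial RNA polymerase, alone of the 9 had an unadjusted p under 0.05 in each medium, against 12.2% and 9.12% of all genes. It was lower, by -0.29 with GCM LN18 (limma adjusted p = 0.0793, 0.00817 without the block). With GCM U87-MG it had -0.16 (limma adjusted p = 0.495, 0.123 without the block). Without the block Polrmt was called lower with GCM LN18, against 2.64% of all genes, and 0 of the 9 were called with GCM U87-MG. The median over the 9 genes was 0.04 with GCM LN18 and 0.02 with GCM U87-MG.

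**Figure D4:**
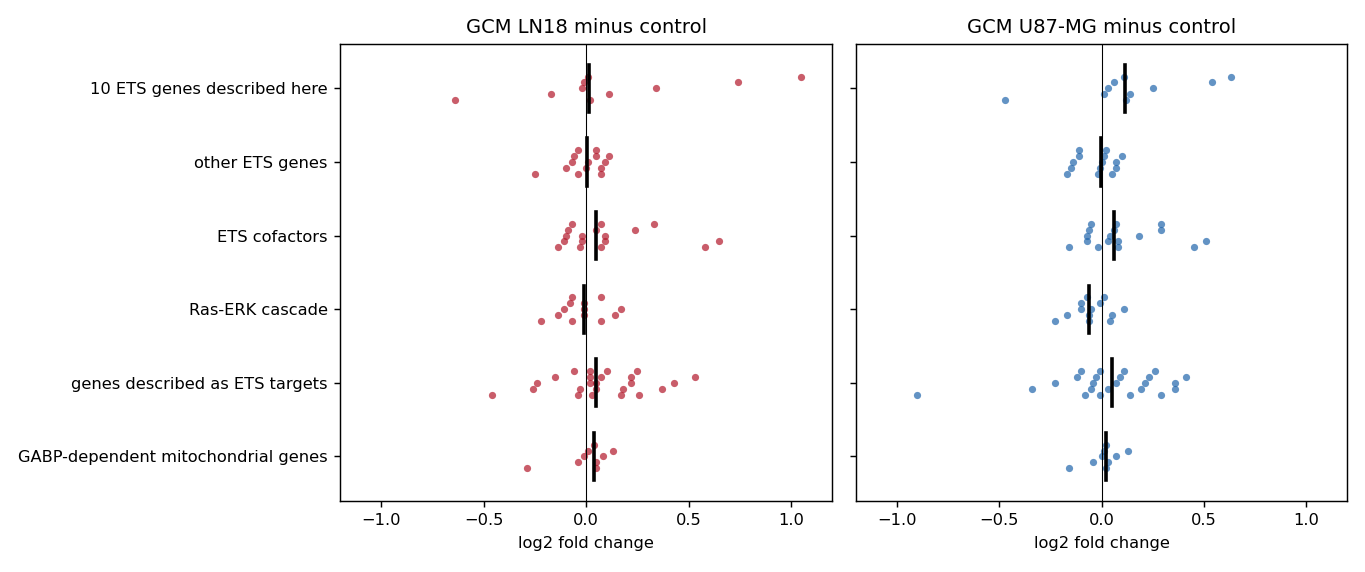
Log2 fold change (horizontal axis) of each measured gene of 6 lists in GCM LN18 (left) and GCM U87-MG (right) against control, with a black bar at the median of each list. The 14 other ETS genes range from -0.25 to 0.11 in GCM LN18.

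Some markers of microglia moved with these groups. The linear signal was summed over the 9 measured markers. This sum was 9940 to 10200 in GCM LN18, 9380 to 10000 in GCM U87-MG and 7720 to 8190 in control. Such a sum weighs bright markers most, and these differed. Cx3cr1, the fractalkine receptor, averaged 10.87 and had log2 fold changes of 0.97 and 0.78. Trem2, at 10.97, had 0.01 and 0.05, and Csf1r, at 9.04, had 0.18 and 0.19 (limma adjusted p = 0.756 and 0.791). Positive fold changes were found for 9 of 9 markers in both media, against 8288 of 17097 genes with GCM LN18 and 8330 with GCM U87-MG. Over all genes, 0.538% were called higher with GCM LN18, 0.0468% with GCM U87-MG and 0.509% for the mean of both media. Of the 9 markers, Cx3cr1 and Tmem119 were called higher in GCM LN18, by 0.97 and 0.91 (limma adjusted p = 0.00827 and 0.0390). Cx3cr1 was called higher in GCM U87-MG too, by 0.78 (limma adjusted p = 0.0499). Leaving out 1 array, the adjusted p ran up to 0.0859 and 0.228 in GCM LN18, and to 0.360 for Cx3cr1 in GCM U87-MG. Fcrls, an Fc receptor-like gene of microglia, was called higher in the mean of both media, by 0.33 (limma adjusted p = 0.0366), and its adjusted p ran from 0.0548 to 0.108 with 1 array left out. In RNA of whole cultures, more cells of a type and more RNA per cell cannot be told apart, and the part of these markers in the ETS results was not tested. The summed signal of 6 endothelial markers, a cell type with high Ets1, Fli1 and Erg, was 70.7 to 74.2 in GCM LN18, 65.9 to 73.9 in GCM U87-MG and 69.1 to 74.3 in control. Of these, Kdr averaged 5.25 and the defining markers Cdh5 and Tek 2.59 and 2.61, and Erg averaged 3.53. The 5 measured lymphocyte markers summed to 63 to 65.4 in GCM LN18, 59.7 to 62 in GCM U87-MG and 62.7 to 63.9 in control. The GCM U87-MG arrays lay wholly below control for the lymphocyte sum, although 3 of the 5 markers had positive fold changes there and 2 negative ones. The 5 fibroblast markers summed to 28.9 to 29.8 in GCM LN18, 28 to 29.5 in GCM U87-MG and 30.1 to 31.7 in control, so both media lay below control. These markers were dim, with mean log2 signals of 2.14 to 3.12, below the lowest array median of 3.39. In each medium 4 of the 5 had negative fold changes and 1 a positive one, and 0 were called. The 5 neuronal markers summed to 44.2 to 45.8 in GCM LN18, 43.2 to 44.1 in GCM U87-MG and 44.4 to 46.5 in control, so GCM U87-MG lay below control. The markers were dim, with mean log2 signals of 2.16 to 4.01, and they did not move together. In GCM U87-MG 2 had positive fold changes and 3 negative ones, with Tubb3 at 0.18 but Nefl at -0.14 and Syt1 at -0.16. The sums of astrocyte and oligodendrocyte lineage markers overlapped control in both media. The part of these lists in the ETS results was not tested.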

How the data were processed

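Affymetrix MG-430 PM strip arrays were hybridized with RNA of 9 samples of cultured microglia, 3 per group, and groups were taken from the sample titles. The authors deposited log2 signals of 45141 probe sets, normalized before deposit. The submitters' notes name limma. The study refers to its methods for the pre-processing of these arrays, and the one array method described there, RMA, is given for public array sets, so that RMA was also used here is likely but not stated. Leaving out controls, 45037 probe sets remained, of which 28898 have 1 symbol in the platform annotation, 551 have several and 15588 are unnamed here, and those without a single symbol were left out. Symbols were updated by gene identifier (28689 probe sets matched), which gave 17097 genes.

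The 9 arrays entered 1 linear model (limma 3.58.1, R 4.3.3), with a mean per group and the replicate number as a block. The Benjamini-Hochberg adjustment ran over all genes. The sample titles give replicate numbers but do not say whether samples of the same number came from 1 culture. The block was used because the arrays of the 3 replicate numbers have equal means for 100% of the probe sets. The deviations of same-numbered arrays then sum to 0 by construction, so their correlation cannot show pairing. Such values hold 4 residual degrees of freedom, and a fit without the block counts 6. The fit was tested on simulated data.

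The members and gene lists were chosen with earlier results of these data known. Named are the 10 members, list genes called in any comparison (at most 3 in each direction of a list) and the 5 genes most and 3 least correlated with Ets1. Other list genes that are named (Spi1, Etv1, Erg, the GABP subunits, Srf, Runx3, Cebpa, Gab2, Fos, Egr1, Bcl2l1, Itgam, Mmp9, Polrmt and the markers other than Cx3cr1, Tmem119 and Fcrls) were picked after their values had been seen. Alternatives were no block, trended and robust eBayes, a minimum mean log2 signal of 5, the mean of all probe sets, quantile normalization, median centring, only the groups compared, and each array left out in turn. Motifs were counted in RefSeq promoters.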

Additional observations from a re-analysis of the deposited data

How the results depend on the processing

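Counts over all 10 genes include Ets1, which was picked for its difference, and are a description. Of the 10 genes, 2 were called in GCM LN18, 0 in GCM U87-MG, 2 in the mean of both media and 0 between the media. Without the replicate block these counts were 4, 2, 4 and 0. With trended and robust eBayes 2 were counted in GCM U87-MG, Ets2 among them (adjusted p of Ets2 = 0.0443 from limma). With a minimum mean log2 signal of 5 the count was 1 in GCM LN18 and 1 in the mean of both media, since Ets1 and Elf4 are then not among the 8 genes tested. Leaving out 1 array gave 1 to 3 calls in GCM LN18, 0 to 0 in GCM U87-MG, 1 to 3 in the mean of both media and 0 to 0 between the media. No called fold change of a member changed sign under an alternative that was run. A fit of only the groups compared has no form for the mean of both media.

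Over all genes, 150, 8, 139 and 0 were called in these 4 comparisons, and 894, 259, 823 and 1 without the block. Leaving out 1 array gave 3 (without GCM LN18 replicate 2) to 179 genes in GCM LN18, 0 (without GCM U87-MG replicate 1 or 3) to 10 in GCM U87-MG and 10 (without GCM U87-MG replicate 3) to 154 in the mean of both. Only the groups compared gave 89 genes in GCM LN18 but 0 in GCM U87-MG. In GCM U87-MG, trend and robust estimation gave 21, the dim filter 3, the mean of probe sets 5 and quantile normalization 3. The cause of these differences was not tested.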
